A study of Mus musculus with 8 samples.

Results

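The small leucine-rich proteoglycans are secreted matrix proteins that sit on collagen fibrils, and 9 of their genes, Dcn, Bgn, Aspn, Lum, Fmod, Prelp, Omd, Ogn and Podn, are described here in brown fat (BAT), the tissue that burns lipid to make heat. The members were chosen by name as genes of the family and matched by Ensembl identifier, and all 9 were found among the 31053 genes of the count table. BAT was profiled by bulk RNA-seq in male mice at 8 weeks of age, with 4 wild-type (WT) and 4 db/db animals, taken after fasting. The WT mice were C57BL6/J. The db/db mice carried the Lepr db mutation, which inactivates the leptin receptor and leads to overeating, obesity and diabetes, on a line named B6.BKS(D)-Leprdb/J in the methods and C57BL6/J in the labels. The study's sources differ on the supplier of the WT mice, do not call the genotypes littermates, and list a db/db stock that may not match the line name, so genetic background and genotype cannot be told apart. Both genotypes were on normal diet.

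The WT libraries held 2374079 to 2615009 counts and the db/db libraries 2382722 to 3240074 (exact two-sided permutation p = 0.114). A level of 3 counts, taken as the detection floor, lay between 0.902 and 1.33 CPM (counts per 1000000 counts of the tested genes, after scaling between libraries). Lepr held 0 counts in all 8 libraries and gave no check of the genotype. The labels call the cells a stromal vascular fraction, a preparation that lacks mature fat cells, but the summed level of 6 brown adipocyte markers was 9363 to 11130 CPM in WT and 6015 to 8084 CPM in db/db, so the libraries held adipocyte RNA and are called BAT here. Markers of skeletal muscle stood highest in db/db replicate 1, at 9245 CPM summed over 8 genes against 1858 to 4203 CPM in the other db/db libraries and 369.5 to 1266 CPM in WT. The counts of called genes are therefore also given without db/db replicate 1 for the members and the main lists.

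Each member has a core of leucine-rich repeats that binds collagen, and most carry sugar chains, of chondroitin or dermatan sulphate in decorin (Dcn) and biglycan (Bgn) and of keratan sulphate in lumican (Lum), fibromodulin (Fmod) and osteomodulin (Omd). Bound to fibrils they limit fibril width and spacing, and in solution several of them bind growth factors such as TGF-β or receptors. In adipose tissue the matrix is laid down mainly by fibroblasts and adipocyte progenitors, and the fibrils surround each fat cell.

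Several of the genes lie next to each other in the genome (mouse build GRCm38, which is mm10). Prelp (chromosome 1, 133910304 to 133921414, minus strand) and Fmod (chromosome 1, 134037254 to 134048277, plus strand) were 115.8 kb apart and point away from each other, with 0 protein-coding genes between them. Dcn (chromosome 10, 97479609 to 97518143) and Lum (chromosome 10, 97565128 to 97572703) were 46.98 kb apart on the plus strand, followed by Kera and Epyc, which code for keratocan and epiphycan of the same family. Aspn (chromosome 13, 49544443 to 49567565), Omd (49582462 to 49592822) and Ogn (49608046 to 49624501) formed a row on the plus strand with gaps of 14.9 and 15.22 kb, and Ecm2 lay 11.65 kb before Aspn. Bgn (chromosome X, 73483602 to 73495933, plus strand) and Podn (chromosome 4, 108014791 to 108096445, minus strand) stand alone.

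The promoter sequences of 4 members are shown because they rose most or, for Fmod, came from 0 counts, and because Prelp and Fmod share a neighbourhood. RefSeq (GRCm38.p6) gave promoters for 7 of the 9 members, and Dcn and Lum had no entry. Each sequence runs 5′ to 3′ on the strand of the gene from 250 to 31 bases before its start. Capitals mark motifs found on either strand: the SMAD box CAGAC or GTCTG, the TATA box TATAAA or TTTATA, and the TEAD core CATTCC or GGAATG.
Prelp, chr1:133921432-133921651, minus strand: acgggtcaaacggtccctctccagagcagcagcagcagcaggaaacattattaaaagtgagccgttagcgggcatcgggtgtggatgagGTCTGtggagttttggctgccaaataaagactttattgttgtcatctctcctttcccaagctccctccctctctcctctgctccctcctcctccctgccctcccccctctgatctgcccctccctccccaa
Fmod, chr1:134037004-134037223, plus strand: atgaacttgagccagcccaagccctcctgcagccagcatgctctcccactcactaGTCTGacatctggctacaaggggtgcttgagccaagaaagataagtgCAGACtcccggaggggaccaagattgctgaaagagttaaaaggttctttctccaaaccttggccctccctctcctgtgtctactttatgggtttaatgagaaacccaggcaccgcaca
Bgn, chrX:73483351-73483570, plus strand: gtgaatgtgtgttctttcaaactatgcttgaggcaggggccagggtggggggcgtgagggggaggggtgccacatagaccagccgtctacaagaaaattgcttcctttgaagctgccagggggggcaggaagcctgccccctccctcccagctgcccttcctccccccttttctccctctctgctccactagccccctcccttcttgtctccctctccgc
Ogn, chr13:49607765-49607984, plus strand: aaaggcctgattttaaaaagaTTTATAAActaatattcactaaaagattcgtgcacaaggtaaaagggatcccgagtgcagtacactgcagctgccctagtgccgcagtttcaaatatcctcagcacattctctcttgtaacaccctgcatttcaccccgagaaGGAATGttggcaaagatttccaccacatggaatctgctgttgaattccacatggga

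The Prelp window held the SMAD box 1 time and the Fmod window 2 times, while 38.5% of 32851 mouse promoter windows of the same length held it. The Ogn window held 2 matches to the TATA letters, which overlap on opposite strands, and the Aspn window also held 2, against 9.95% of all windows with at least 1. The TEAD letters were found in Ogn alone among the 7 members with a window and in 11.4% of all windows. The AP-1 letters TGACTCA, present in 4.01% of windows, were in no member window, and the windows of Bgn, Omd and Podn held none of the motifs searched. These matches describe letters in a window and were not tested for binding.

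The comparison of db/db with WT asks how the BAT transcriptome differs in obesity with diabetes. Of the 9 members, 7 passed the filter on low counts, and 6 of these 7 were higher in db/db and 0 lower at an adjusted p under 0.05 by edgeR's quasi-likelihood test with Benjamini-Hochberg adjustment over all 9264 genes tested. Over all genes tested, 27.7% passed, 15.8% as higher and 11.9% as lower in db/db. The median log2 fold change was 0.93 over the 7 members tested and 0.0066 over all genes tested. The 6 were Prelp, Bgn, Ogn, Aspn, Dcn and Lum. Podn did not pass, and Fmod and Omd had too few counts for the fit. Without db/db replicate 1, 4 members passed, Prelp at a log2 fold change of 2.77, Bgn at 1.52, Ogn at 1.48 and Dcn at 0.68, and the number of genes passing was 2250 in place of 2568, with 24% of genes called, 13.6% higher and 10.3% lower. With the mean log2 level of the skeletal muscle markers as a covariate, 2 members passed, Prelp and Bgn, where 5.28% of all genes were called, 3.94% higher and 1.34% lower. A filter of 10 counts in every library leaves out genes that enter through 1 genotype alone. It also left out Ogn, which held 5 counts in WT replicate 3. The other 5 of the 6 passed, where 27.5% of genes were called, 15.3% higher and 12.2% lower.

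**Figure D1:**
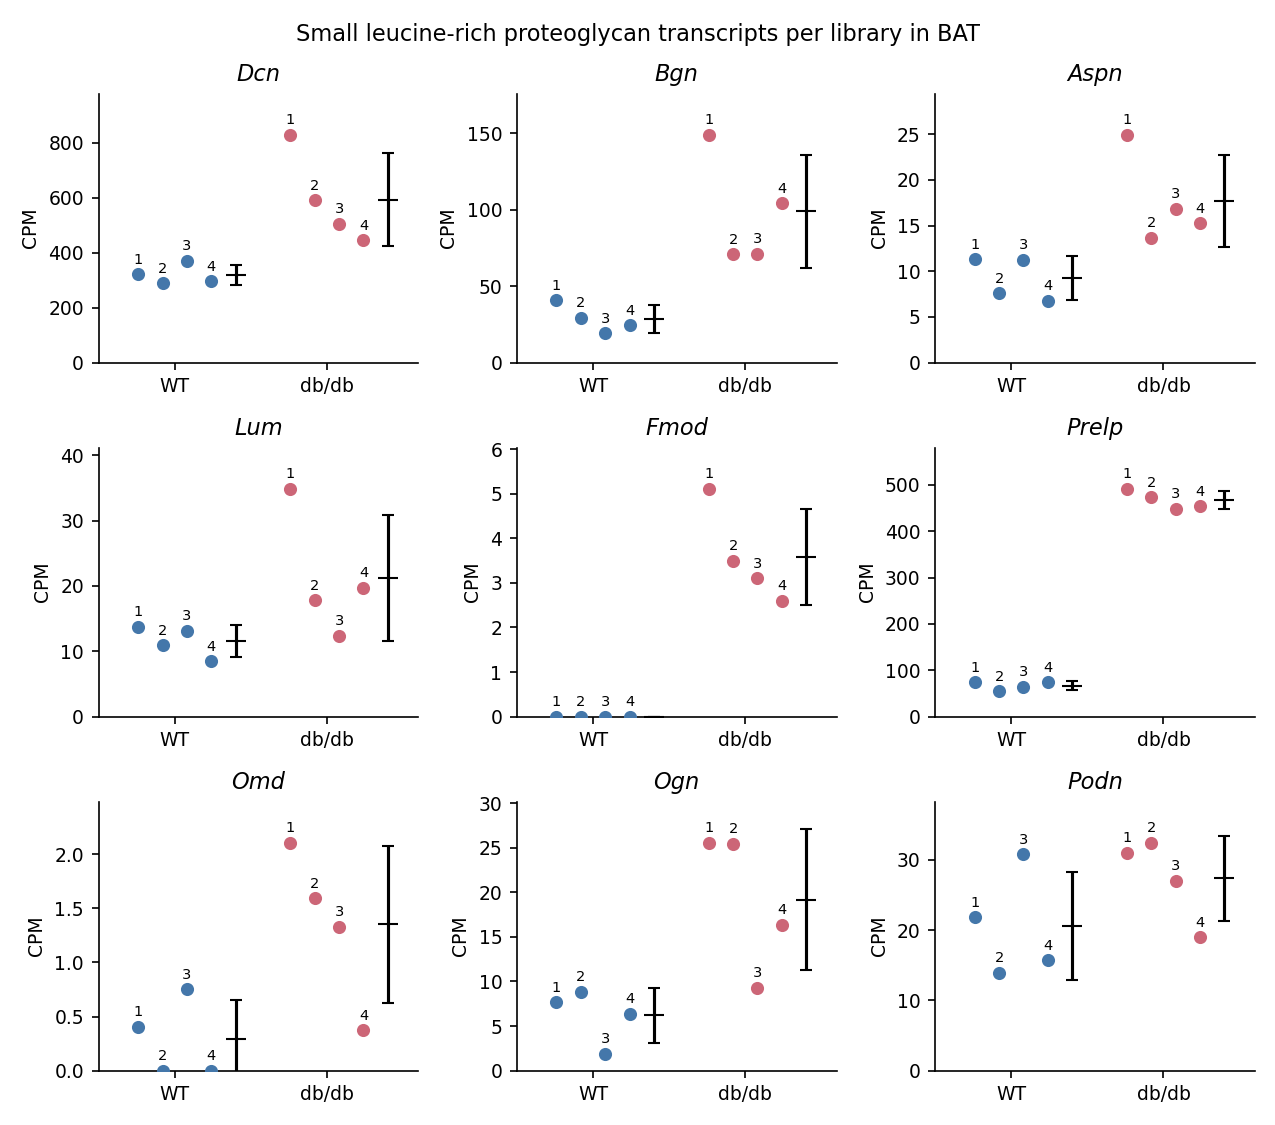
Levels of the 9 members in each library, in CPM on linear axes that start at 0 and differ between panels, with points numbered by replicate and bars giving the mean ± SD of 4 libraries (cut at 0 where the bar for Omd runs below it). The db/db libraries lie above all WT libraries in Dcn, Bgn, Aspn, Fmod, Prelp and Ogn, and overlap them in Lum, Omd and Podn.

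Class I holds Dcn, Bgn and Aspn. Decorin, which carries a single chain of chondroitin or dermatan sulphate and binds both collagen fibrils and TGF-β, had the highest total counts of the family in both genotypes, although Prelp had more in db/db replicate 4 (1221 against 1195 counts). Dcn was at 321.3, 289.1, 370.1 and 295.9 CPM in WT replicates 1 to 4 and at 829.7, 590.1, 505.8 and 444.5 CPM in db/db replicates 1 to 4. Every db/db library was above every WT library, with db/db replicate 1 the highest. Dcn rose by a log2 fold change of 0.89 ± 0.17 (SE, n = 4 per genotype), or 1.86-fold, with an edgeR adjusted p of 0.000782. With the muscle covariate it was at 0.44 and did not pass (edgeR adjusted p = 0.480). Over all genes tested, the CPM ranges of the genotypes were separate in 28.1%, with db/db above in 15.3%.

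Biglycan is the closest relative of decorin, and its soluble form is known as a ligand of Toll-like receptors on macrophages. Bgn was at 40.9, 29.5, 19.2 and 24.6 CPM in the WT libraries and at 149.2, 70.9, 71.4 and 104.2 CPM in the db/db libraries. The ranges were separate, and db/db replicates 1 and 4 were higher than the other two. The log2 fold change was 1.80 ± 0.25 (adjusted p = 4.26e-05 in edgeR), or 3.48-fold. Asporin (Aspn) lacks a glycosaminoglycan chain and competes with decorin for its site on collagen. Aspn was at 11.3, 7.60, 11.3 and 6.79 CPM in WT and at 25.0, 13.7, 16.8 and 15.3 CPM in db/db, again with separate ranges. Its rise of 0.93 ± 0.27 on the log2 scale (edgeR adjusted p = 0.0168) came to 0.70 without db/db replicate 1, with an adjusted p of 0.0791 from edgeR. It also did not pass without WT replicate 2 (edgeR adjusted p = 0.0529) or without WT replicate 4 (edgeR adjusted p = 0.0565).

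Class II holds Lum, Fmod, Prelp and Omd. Prelp, also called prolargin, has a basic end that binds heparan sulphate and is thought to tie basement membranes to the collagen beneath. Prelp was at 74.1, 55.3, 64.6 and 74.3 CPM in the WT libraries and at 491.9, 473.1, 448.6 and 454.2 CPM in the db/db libraries. The ranges lay far apart, and the 4 db/db libraries lay within a ratio of 1.10 of each other. The log2 fold change was 2.80 ± 0.14, or 6.96-fold, with an edgeR adjusted p of 3.34e-10, and it was the 148th largest rise among the 9264 genes tested. The coefficient of variation of Prelp over the db/db libraries was 4.21%, against a median of 13.4% over the 1073 genes with a db/db mean of at least 100 CPM. By the same measure Dcn had 28.5%. Prelp overlaps the antisense gene Gm15851 over 350 exon bases, 9.68% of its exon length. Because no source says whether strand was used in counting, reads of that stretch are uncertain, and Gm15851 held 0 counts in every library.

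Fibromodulin, the chromosomal neighbour of Prelp, binds collagen and steers its cross-linking by lysyl oxidase. Fmod held 0 counts in each of the 4 WT libraries and 17, 11, 7 and 7 counts in the db/db libraries. At a mean of 3.58 ± 1.09 CPM (SD, n = 4), db/db was at least 2.93-fold higher than the WT floor of 3 counts per library, and the exact two-sided permutation p was 0.0286, the smallest that 4 against 4 libraries can give. In db/db replicates 3 and 4 the level rested on 7 counts each, and without db/db replicate 1 the lower bound was 2.52-fold.

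Lumican, which spaces the fibrils of the cornea and is also widespread in connective tissue, was less clear. Lum was at 13.8, 10.97, 13.2 and 8.49 CPM in WT and at 34.9, 17.8, 12.4 and 19.7 CPM in db/db, so that db/db replicate 3 fell inside the WT range. The log2 fold change of 0.88 ± 0.29 (edgeR adjusted p = 0.0320) came to 0.52 with an adjusted p of 0.176 without db/db replicate 1. The call was also lost without WT replicate 2, 3 or 4, with adjusted p-values of 0.0741, 0.0505 and 0.0973. Osteomodulin (Omd), known from bone and teeth, was close to the floor, with 1, 0, 2 and 0 counts in WT and 7, 5, 3 and 1 counts in db/db. The ratio of db/db to WT was 4.61 with a 95% counting interval of 1.32 to 24.7, while over libraries the exact permutation p was 0.0857. A difference in Omd was not detectable between the libraries at this depth.

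Ogn codes for osteoglycin or mimecan of class III, a regulator of collagen fibril formation that is also released into blood. Ogn was at 7.69, 8.86, 1.88 and 6.37 CPM in WT and at 25.6, 25.5, 9.31 and 16.4 CPM in db/db. The ranges were narrowly separate, with WT replicate 2 at 8.86 CPM below db/db replicate 3 at 9.31 CPM. The log2 fold change was 1.66 ± 0.38 (edgeR adjusted p = 0.00343), and it kept below the threshold in each fit that left out 1 library, with adjusted p-values from 0.00119 to 0.0147. With the muscle covariate Ogn was at 1.38 and did not pass (edgeR adjusted p = 0.250). Podocan (Podn), of the non-canonical class V and known from kidney and artery wall, was at 21.9, 13.9, 30.8 and 15.7 CPM in WT and at 30.99, 32.45, 27.04 and 18.97 CPM in db/db. The ranges overlapped, and the log2 difference of 0.41 ± 0.25 did not pass (edgeR adjusted p = 0.243). The span of Podn overlaps that of Scp2, which held 304 to 460 counts, without shared exon bases, and Aspn shares 7 exon bases with Cenpp, which held 1 to 11 counts.

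The family as a whole took a larger share of the counts in db/db. The 9 genes together made up 0.0406% to 0.0521% of all counts in the WT libraries and 0.102% to 0.171% in the db/db libraries, with means of 0.0465% ± 0.00593 and 0.124% ± 0.0326 (SD, n = 4 each). Within single libraries the 95% Wilson intervals, which cover counting error only, were narrow next to these differences, at 0.0494% to 0.0549% in the highest WT library and 0.0978% to 0.105% in the lowest db/db library. Without db/db replicate 1 the db/db mean was 0.108%.

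The make-up of the family also differed, which is given as a description without a test. Prelp was 12.6% to 17.2% of the counts of the 9 genes in WT and 30.9% to 42.2% in db/db. Dcn was 65.4% to 72.3% of these counts in WT and 41.3% to 52.0% in db/db, although its own level rose. The shares of Podn (3.35% to 6.02% in WT, 1.76% to 2.64% in db/db) and Aspn (1.57% to 2.31% in WT, 1.11% to 1.57% in db/db) were also lower in db/db without overlap. The shares of Bgn, Ogn, Lum and Omd overlapped between the genotypes.

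**Figure D2:**
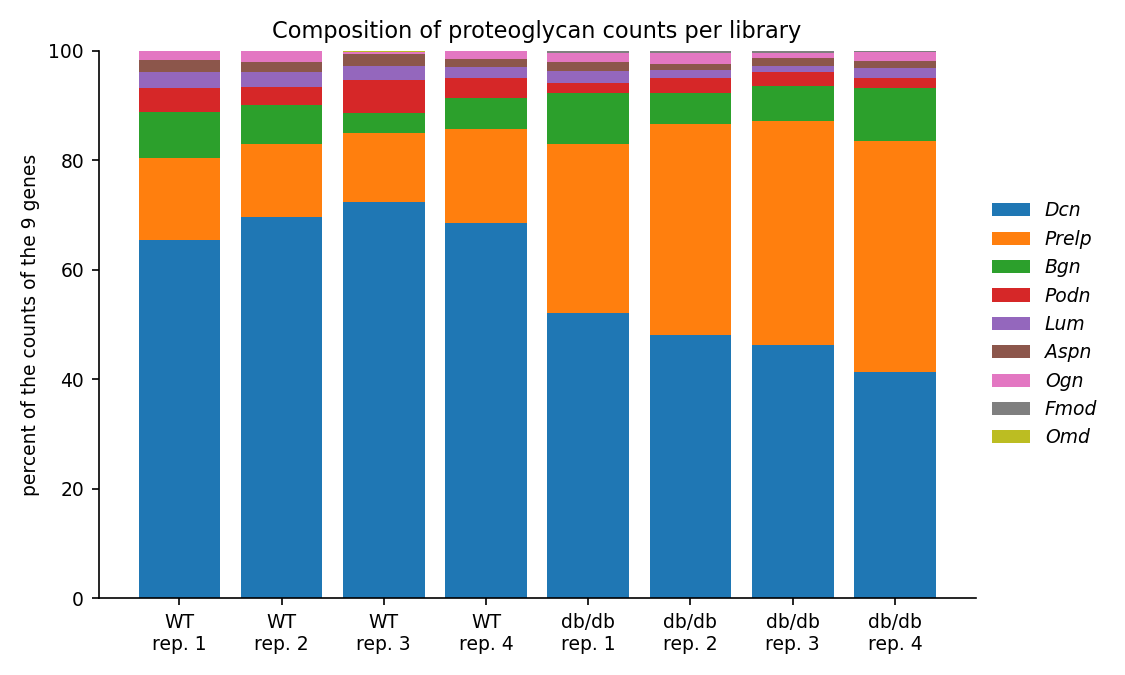
Counts of each member as a percent of the counts of the 9 genes, stacked to 100% for each of the 8 libraries. The Prelp segment is 12.6% to 17.2% in WT and 30.9% to 42.2% in db/db, and the Dcn segment shrinks to 41.3% to 52.0% in db/db.

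Levels of different genes were compared as CPM per kb of exon, bearing in mind that the end of the transcript that was read is not stated. In WT the order of mean levels was Dcn (54.7 CPM per kb), Prelp (18.6), Podn (4.82), Lum (4.74), Bgn (4.68), Aspn (3.93), Ogn (2.42), Omd (0.129) and Fmod (0). Dcn, Prelp and the group that follows were separate from one another, while neighbours in the order from Podn through Lum, Bgn and Aspn to Ogn overlapped. Ogn was separate from Omd. In db/db the order was Prelp (129.2 CPM per kb), Dcn (101.5), Bgn (16.2), Lum (8.66), Aspn (7.51), Ogn (7.47), Podn (6.41), Fmod (1.08) and Omd (0.600). The ranges of Prelp and Dcn overlapped in db/db, at 124.1 to 136.1 and 76.2 to 142.1 CPM per kb, and those of Bgn, Lum, Aspn, Ogn and Podn overlapped from each to the next.

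Ratios of members within a library do not depend on library scaling apart from the added prior count, and 6 pairs of relatives or neighbours were compared by exact two-sided permutation tests. The smallest exact p for 4 against 4 libraries is 0.0286, so that a single differing pair could not pass after Benjamini-Hochberg adjustment over the 6 pairs. The log2 ratio of Lum to Fmod was 4.01 ± 0.30 in WT and 2.28 ± 0.41 in db/db, with separate ranges and a difference of -1.74 (exact p = 0.0286, adjusted p = 0.171). Because Fmod held 0 counts in WT, the prior count sets the WT ratio: the difference was -3.50 with a prior count of 0.5 and -0.81 with 5, so its size is not measured. The log2 ratio of Dcn to Bgn was 3.49 ± 0.54 in WT and 2.603 ± 0.42 in db/db, a difference of -0.89 (exact p = 0.0571, adjusted p = 0.171). The neighbours Dcn and Lum kept nearly the same mean ratio, with a log2 difference of 0.10 (exact p = 0.714). The differences for Prelp to Fmod (0.30), Ogn to Omd (0.57) and Ogn to Aspn (0.69) had exact p-values of 0.171, 0.543 and 0.4. The first ran from -1.48 to 1.26 and the second from -0.18 to 0.84 between prior counts of 0.5 and 5, so neither has a settled direction.

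**Figure D3:**
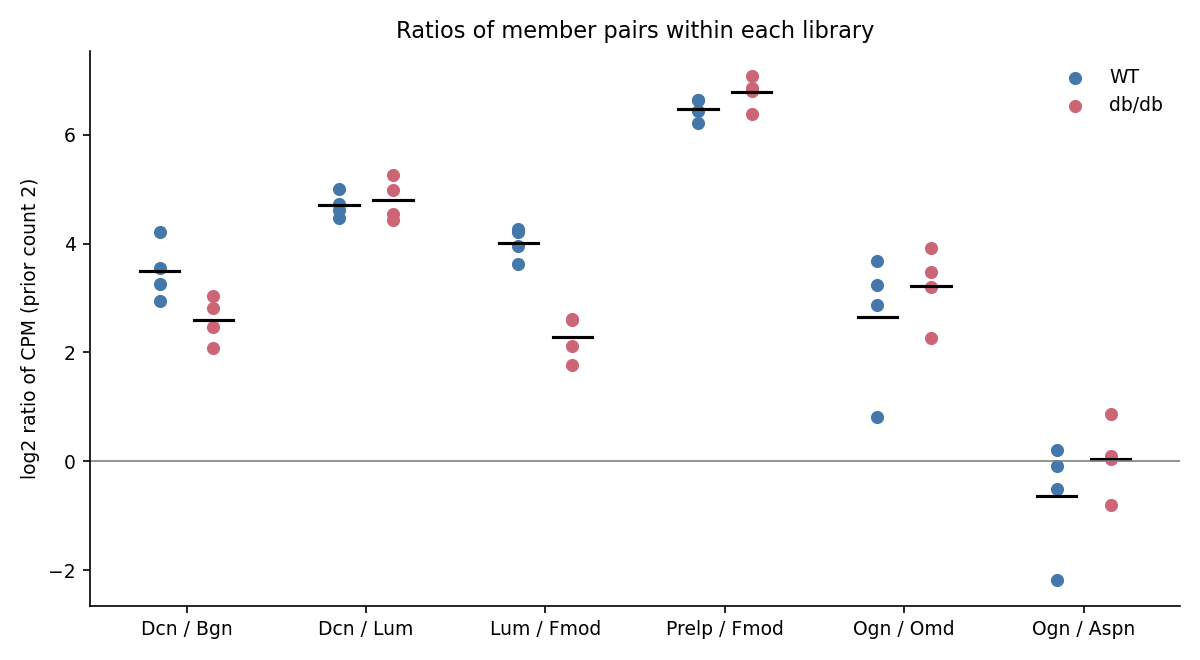
Log2 ratio of the CPM of 2 members (prior count 2) for 6 pairs, with 1 point per library and a line at the mean of each genotype. Only the Lum to Fmod ratio has separate ranges, 3.62 to 4.27 in WT and 1.77 to 2.61 in db/db, and its WT level depends on the prior count.

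Members also varied among the libraries of 1 genotype. Over the 21 pairs of the 7 members tested, Pearson's r of the deviations of log2 CPM from the genotype means ran from -0.409 to 0.765 over the 8 libraries, with a median of 0.30, and 18 of the 21 values were positive. The median r with the other members was highest for Aspn (0.553), Lum (0.524) and Dcn (0.5) and was 0.256 for Prelp and 0.108 for Ogn. All points share libraries and scaling, so these values are descriptions. The 3 genes most like Dcn by this measure among 4530 genes of at least 20 CPM were Col6a3 (r = 0.980), a chain of collagen VI, Limch1 (0.954) and Zfp91 (0.943). Between the genotypes they differed in direction: Col6a3 rose by 1.49 ± 0.20 on the log2 scale (edgeR adjusted p = 2.59e-05), Limch1 was at 0.74 (adjusted p = 0.0804) and Zfp91 fell by 0.35 (adjusted p = 0.0422).

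The collagens, partners of the family in the matrix, were called higher in db/db in every gene tested. Of 13 genes for fibril-forming and associated collagens, 11 were tested and all 11 rose, against 15.8% of all genes tested, with a median log2 fold change of 1.82. Without db/db replicate 1 the same 11 rose, with a median of 1.63, and with the muscle covariate 5 of them passed. With 10 counts required in every library 9 were tested and 9 rose, as Col14a1 (4 to 15 counts in WT) and Col12a1 (3 to 10 counts) dropped out. Col3a1 went from 94.3 ± 11.8 to 391.6 ± 153 CPM, a log2 fold change of 2.06 ± 0.23 (edgeR adjusted p = 3.48e-06), and Col1a2 and Col1a1 rose by 1.54 and 1.47. Col14a1 and Col5a1, for chains that associate with or nucleate fibrils, rose by 2.88 and 2.56. The summed collagen level was 2.17 to 5.24 times the WT mean in the db/db libraries and was highest in db/db replicate 1, as was Dcn at 1.39 to 2.6 times and Bgn at 2.49 to 5.23 times. Prelp, at 6.69 to 7.33 times its WT mean, varied least among them.

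**Figure D4:**
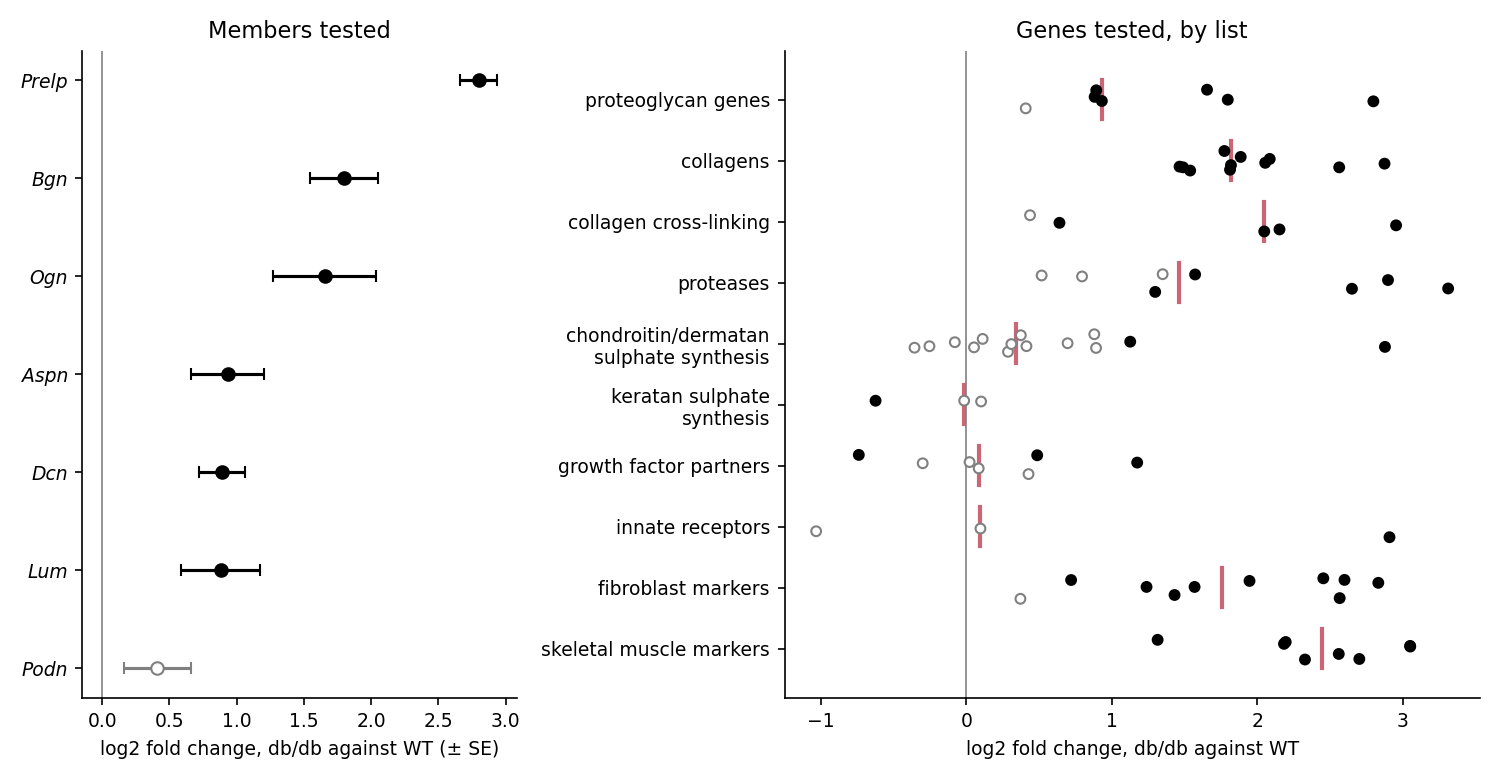
Log2 fold changes of db/db against WT from edgeR, on the left for the 7 members tested with bars of ± 1 SE and on the right for all tested genes of 10 lists, with filled points for an adjusted p under 0.05 and a red line at the median of each list. The members have a median of 0.93, the collagens 1.82, the cross-linking genes 2.05, the fibroblast markers 1.76, the chondroitin and dermatan sulphate genes 0.34 and the keratan sulphate genes -0.01.

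Enzymes that cross-link collagen rose in 4 of 5 tested genes of 8, against 15.8% of all genes. Lox, the main lysyl oxidase, went from 36.3 ± 11.4 to 149.7 ± 37.3 CPM (log2 fold change 2.05 ± 0.21, edgeR adjusted p = 1.59e-06), its relatives Loxl1 and Loxl2 rose by 2.96 and 2.15, and Plod1 rose by 0.64. The same 4 passed without db/db replicate 1, and 2 of them, Lox and Loxl1, with the muscle covariate. Loxl1 (7 to 12 counts in WT) and Loxl2 (5 to 11 counts) entered the test through db/db and dropped out with 10 counts required in every library. Plod3 was at 0.44 (edgeR adjusted p = 0.0723). It passed with 10 counts required in every library, where 3 of 3 tested cross-linking genes and 15.3% of all genes were called higher. Of 14 genes for proteases that mature or cleave matrix and their enhancers, 8 were tested and 5 rose, against the same 15.8%. Adamts5, which cleaves large proteoglycans, went from 10.01 to 100.3 CPM (log2 fold change 3.31 ± 0.28, edgeR adjusted p = 1.85e-07). Pcolce and Pcolce2, which enhance procollagen processing, rose by 2.65 and 2.90, Htra1 by 1.57 and Mmp2 by 1.30. The same 5 passed without db/db replicate 1, and 3 of them, Adamts5, Pcolce and Pcolce2, with the muscle covariate. Pcolce2, with 9 to 15 counts in WT, dropped out with 10 counts required in every library, and Adamts1, named after its values were seen, was gained. Of 8 other genes of the family or close to it, 2 were tested. Tsku, for the secreted protein tsukushi, rose by 1.27 ± 0.42 (edgeR adjusted p = 0.0314), and Ecm2, beside Aspn, was at -0.06 (adjusted p = 0.903). The rise of Tsku did not pass without WT replicate 3 or 4 or without db/db replicate 2, 3 or 4, nor with the replicate block, limma-voom or a filter of 10 counts in every library. Kera, Epyc and Chad held 0 counts in all libraries, although Kera and Epyc follow Lum on chromosome 10.

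The genes that build the sugar chains had lower medians. For chondroitin and dermatan sulphate, 14 of 22 genes were tested, 2 rose and 0 fell, a share near the 15.8% of all genes called higher, with a median log2 fold change of 0.34. Both had fewer than 10 counts in each WT library and passed the filter through db/db. Dse, the epimerase that turns chondroitin into dermatan sulphate, went from 1.42 ± 0.54 to 10.7 ± 4.20 CPM (log2 fold change 2.88 ± 0.44, edgeR adjusted p = 9.1e-05). The other was Chst14, a dermatan sulphotransferase named after its values were seen, at 1.13 ± 0.40 (adjusted p = 0.0441), and it did not pass without db/db replicate 1 or in a fit of every gene with at least 1 count. The 3 most abundant genes of the list, Chst15, B3gat3 and Chpf, were at 0.05, 0.11 and 0.31, and none passed. The list count was 1 in place of 2 without db/db replicate 3 or 4, with DESeq2, limma-voom, the filter of 10 counts in every library, the replicate block and the muscle covariate, and it was Dse in the last pair. The count without db/db replicate 1 was 2, with Fam20b, named after its values were seen, in place of Chst14. For keratan sulphate, 3 of 8 genes were tested and 1 fell, against 11.9% of all genes called lower. B4galt1, a galactosyltransferase of many glycans, fell by 0.62 ± 0.14 on the log2 scale (edgeR adjusted p = 0.00230), while Chst1 was at 0.10 and Fut8 at -0.01. With the muscle covariate 0 of the 3 passed.

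Of 12 genes for growth factors and receptors bound by the family, 7 were tested, 2 were higher and 1 lower, against 15.8% and 11.9% of all genes. In the fit of every gene with at least 1 count, where 19.3% of all genes were called, 11.3% higher and 8.01% lower, 5 were higher and 1 lower, with Tgfb1, Tgfb3 and Ccn2, named after their values were seen, among the higher. Egfr and the endocytic receptor Lrp1 rose by 1.17 and 0.49, and Kdr, the VEGF receptor of endothelial cells, fell by 0.74 (edgeR adjusted p = 0.00127). The TGF-β ligands were below the count filter. Tgfb1 had means of 1.81 CPM in WT and 5.12 CPM in db/db, and Tgfb2 had 2.46 and 4.59 CPM. Tgfb3 held 0 to 3 counts in the WT libraries (mean 0.594 CPM) and 7 to 44 counts in the db/db libraries (8.78 CPM). The receptor Tgfbr2 was at 0.02 (edgeR adjusted p = 0.962). Without db/db replicate 1, 1 gene of this list, Kdr, passed in place of 3, and with the muscle covariate 0 passed in edgeR. Of 9 genes for innate receptors and their effectors linked to biglycan, 3 were tested. Cd44 rose by 2.91 ± 0.36 (adjusted p = 1.41e-05 in edgeR), with 2 to 8 counts in WT and 37 to 63 in db/db, so that it passed the filter through db/db and dropped out with a filter of 10 counts in every library. In the same list Cd14 was at -1.03 (adjusted p = 0.0997) and P2rx4 at 0.10. Without WT replicate 1, 2 or 3 or db/db replicate 4, 2 genes of this list passed in place of 1. Tlr2 (0.886 CPM in WT, 1.34 in db/db) and Tlr4 (1.38 in WT, 4.598 in db/db) were below the filter. In the fit of every gene with at least 1 count, with the background shares just given, 4 genes of this list were higher (Cd44 and, named after their values were seen, Tlr4, P2rx7 and Pycard) and 1 lower (Cd14).

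Markers of several cell types differed between the genotypes as well, where 15.8% of all genes tested were called higher and 11.9% lower. The share called higher was 13.6% without db/db replicate 1, 3.94% with the muscle covariate and 15.3% with 10 counts required in every library. Of 10 fibroblast and progenitor markers, all tested, 9 rose, with a median log2 fold change of 1.76, and their summed level was 773.2 to 1376 CPM in WT and 2154 to 3338 CPM in db/db. Gsn and Dpt were the most abundant and rose by 1.43 and 2.45. Gsn alone averaged 849.9 CPM in WT and 2293 CPM in db/db, most of the mean sums of 1009 and 2772 CPM. Without db/db replicate 1, 8 of the fibroblast markers passed, with the muscle covariate 2, and with 10 counts required in every library 5 of 6 tested. Of 8 macrophage markers, 8 rose, with sums of 138.4 to 170.4 CPM in WT and 648.5 to 1138 CPM in db/db. The most abundant, Lyz2 and C1qa, rose by 2.79 and 2.07, and without db/db replicate 1 the same 8 passed. With the muscle covariate 6 passed, all but Adgre1 and Mrc1. Trem2, with 0 to 1 counts in WT, entered through db/db, and with 10 counts required in every library 5 were tested and 5 rose, without Trem2, Cd68 and Adgre1. In bulk tissue, more cells of a type and more RNA per cell cannot be told apart. The part of these cell types in the proteoglycan levels was not tested.

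**Figure D5:**
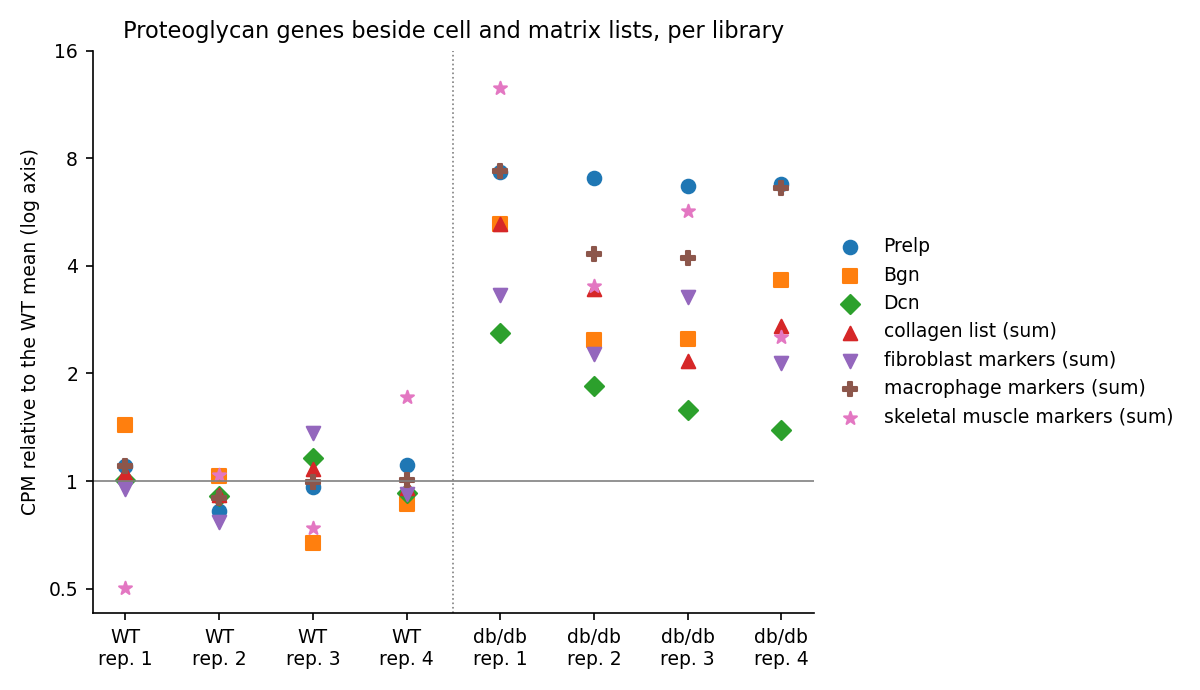
Level of Prelp, Bgn and Dcn and summed levels of 4 lists in each library, as multiples of the WT mean on a log axis. Most of the fibroblast marker sum is Gsn. Prelp stays between 6.69 and 7.33 across the db/db libraries, while the skeletal muscle markers run from 2.52 to 12.6 and are highest in db/db replicate 1.

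Of 8 skeletal muscle markers, 8 rose, against 15.8% of all genes called higher. Their median log2 fold change was 2.44, and the most abundant, Acta1 and Tnnc2, were both at 3.05. The fit without db/db replicate 1, where 13.6% of all genes were called higher, called 7 markers, all but Myh4, with a median of 1.88. With their mean log2 level over all libraries as a covariate, Prelp was at 2.75 ± 0.24 (adjusted p = 2.37e-07) and Bgn at 1.55 ± 0.41 (adjusted p = 0.0290 in edgeR). Aspn and Lum were then at 0.62 and 0.47 with adjusted p-values of 0.592 and 0.708, and 489 genes passed in place of 2568. The marker level did not overlap between the genotypes, so in that fit genotype and muscle RNA were partly the same term. Tendon is known to hold Fmod, Prelp and Dcn at high levels. Of 6 tendon markers 0 passed the count filter, their sum was 0 to 1.69 CPM in WT and 4.84 to 20.2 CPM in db/db with db/db replicate 1 the highest, and Mkx and Kera held 0 counts in every library. In the fit of every gene with at least 1 count, 2 tendon markers, Scx and Thbs4, named after their values were seen, were called higher, as were 11.3% of all genes. The part of muscle or tendon RNA in the proteoglycan levels was not tested.

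Markers of the other cell types gave mixed directions, where 15.8% of all genes were called higher and 11.9% lower. These shares were 13.6% and 10.3% without db/db replicate 1 and 3.94% and 1.34% with the muscle covariate. Of 7 smooth muscle and pericyte markers, 5 were tested and 3 rose, among them the most abundant, Rgs5 (0.51) and Acta2 (2.21), with sums of 192.8 to 235.5 CPM in WT and 326.2 to 438.9 CPM in db/db. The count of 3 of 5 stands against 15.8% of all genes called higher, and it was 2 (Acta2 and Rgs5) without db/db replicate 1 and 1 (Acta2) with the muscle covariate. Of 5 endothelial markers, 0 rose and 1 fell (Emcn, named after its values were seen, by 1.06). Pecam1 and Cldn5 were at -0.31 and 0.31. The Emcn call was lost with the muscle covariate. With 10 counts required in every library 4 endothelial markers were tested and 0 were called. Of 6 brown adipocyte markers, 4 fell and 1 rose, Plin1, named after its values were seen, by 0.79. The most abundant, Cidea and Ucp1, fell by 1.24 and 0.65, and Cox7a1 and Ppargc1a, named likewise, by 0.49 and 0.79. With the muscle covariate 0 of the 6 passed in either direction in edgeR, and the median was -0.26 in place of -0.57. Of 5 white adipocyte markers, 4 rose, with Nnat and Sncg at 4.66 and 5.45, and the same 4 passed with the muscle covariate. Of 5 Schwann cell markers, 4 were tested and 2 rose, with S100b, which adipocytes also express, at 1.61 and Mbp at 0.27 (adjusted p = 0.464). Leaving out db/db replicate 1, 1 Schwann cell marker passed, S100b. Of 4 mesothelial markers 0 were tested, with a sum of at most 1.62 CPM in any library, and of 4 bone markers Bglap, Ibsp and Sp7 held 0 counts in every library although Ogn and Omd are known from bone.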

How the data were processed

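Total RNA of BAT was made into single-end mRNA libraries by a commercial service. The methods name bbduk, STAR on build mm10, HTSeq-count and, for testing, DESeq2, whereas the submitters' processing notes name Trimmomatic, HISAT2 and DESeq2. The study's list of resources also names Trimmomatic and HISAT2. The authors deposited raw counts per Ensembl gene, which were used here, and normalized values on a log2 scale, which were only checked: after undoing the log2, each was the raw count times a constant of its library. Strand, molecular identifiers and the transcript end read are not given in the sources used here, so counts may include PCR copies.

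Of 31053 genes, 30934 were matched to GENCODE M21. Library totals were 2374079 to 3240074 counts. Genes were filtered by filterByExpr (minimum count 10, minimum total 15), scaled by TMM and tested by genotype alone (R 4.3.3, edgeR 4.0.16, quasi-likelihood test), with Benjamini-Hochberg adjustment at 0.05. CPM values are scaled by the total over filtered genes and the TMM factor. SEs were derived from the F statistic. In simulated data with 198 tested genes changed by 2 on the log2 scale, larger than the change of most members, edgeR recovered 191, with 8 false calls among 9312 genes. P-values measure the spread between mice as labelled, 4 per genotype.

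Replicate numbers come from the titles, which do not say whether animals were paired. Deviations of same-numbered libraries correlated between -0.078 and 0.049, which cannot exclude shared housing or handling. No 2 libraries held identical values.

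The members and gene lists were chosen with earlier results of these data known. Of each matrix list, the 3 tested genes of highest mean CPM were named, with the 2 called genes of largest change at a mean of at least 5 CPM, and of each marker list the 2 of highest mean CPM. Alternatives were DESeq2 1.42.0, limma-voom (limma 3.58.1), other scalings and filters, a replicate block, the muscle covariate and each library left out. Member pairs were compared on log2 CPM with a prior count of 2. Intervals and floors cover counting error only.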

Additional observations from a re-analysis of the deposited data

How the results depend on the processing

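Members passing the threshold numbered 6, and 5 to 7 with DESeq2, limma-voom, other scalings, other filters and the replicate block. The replicate block left 6 members and 2557 genes and changed the call of no member, but Tsku, Chst14 and Egfr were lost and Bmp1 gained among the matrix genes, and Cspg4 and Myh4 lost among the markers. With the skeletal muscle covariate 2 members passed, with 489 genes and 13 matrix genes, all among the 28 called without it. Dcn (0.44), Aspn (0.62), Lum (0.47) and Ogn (1.38) then did not pass. The cause was not tested, and the covariate did not overlap between genotypes. Lum also did not pass with limma-voom (0.82, adjusted p = 0.0570) or without TMM (0.88, adjusted p = 0.0522).

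Leaving out 1 library gave 4 to 6 members, 2236 to 2483 genes and 26 to 32 matrix genes. The log2 fold change ran from 2.71 to 2.84 for Prelp, 1.52 to 2.001 for Bgn, 1.32 to 1.87 for Ogn, 0.68 to 1.01 for Dcn, 0.70 to 1.04 for Aspn, 0.52 to 1.05 for Lum and 0.25 to 0.65 for Podn. Podn did not pass in any of these. Aspn and Lum were the members lost, and the cause was not tested.

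With a prior count of 0.5, the difference in log2 ratio turned to -1.48 for Prelp to Fmod and -0.18 for Ogn to Omd, and was -3.50 for Lum to Fmod. With 5 these were 1.26, 0.84 and -0.81, so ratios to Fmod and Omd, at or near 0 counts in WT, depend on the prior count. It turned to -0.0399 for Ogn to Omd without WT replicate 3 and to -0.0512 for Dcn to Lum without db/db replicate 3. Over fits without 1 library the differences ran from -1.07 to -0.65 (Dcn to Bgn), -0.0512 to 0.22 (Dcn to Lum), -1.87 to -1.57 (Lum to Fmod), 0.20 to 0.43 (Prelp to Fmod), -0.0399 to 0.92 (Ogn to Omd) and 0.18 to 0.98 (Ogn to Aspn). With 3 against 4 libraries no exact p can fall below 0.0571, so these ranges carry no call.

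Without mitochondrially encoded genes the summed share was 0.0695% in WT and 0.191% in db/db, and with 1 library left out it ran from 0.0447% to 0.0485% in WT and 0.108% to 0.131% in db/db. Fmod and Omd are limited by depth.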
